A study of Mus musculus with 4 samples.

Results

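The embryonic and adult globins followed here are 5 genes, Hba-x, Hba-a1, Hbb-bh1, Hbb-y and Hbb-b1, taken as every non-control probe that carries one of these names in the scanner files. They were read by 6 of 39429 probes, 2 of them for Hbb-y, each with 1 spot on each array. A further 8 probes read other globin genes of the same 2 loci. The expression arrays compared microdissected mouse hearts at embryonic day 9.5 from Nkx2.5Cre; Hdac3f/f mutants with those from Hdac3f/f controls, on a mixed CD1/B6/129 background. Each of 4 two-colour arrays paired a pool of 3 mutant hearts with a pool of 3 control hearts, called littermates in the protocol, so n = 4 pairs of pools. Cre was driven from Nkx2-5, a gene of heart progenitors, and both groups carried the floxed Hdac3 gene, which encodes a histone deacetylase. No Cre is named for the controls, so loss of Hdac3 and presence of Cre cannot be told apart. Nothing says that Cre was active in the blood cells that a dissected heart still holds.

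Globins are the protein chains of haemoglobin, and each haemoglobin molecule pairs α-type with β-type chains. In the mouse the α-type genes lie together on chromosome 11, with the embryonic ζ gene Hba-x before the adult genes Hba-a1 and Hba-a2. The β-type genes lie together on chromosome 7, with the embryonic genes Hbb-y and Hbb-bh1 before the adult genes. At this stage the circulation carries primitive red blood cells from the yolk sac, which make ζ, εy and βH1 chains together with adult α chains, while adult β chains belong mainly to the definitive cells that come later from the fetal liver. Globin RNA in a dissected heart therefore comes with blood. In pooled tissue, fewer red cells and less globin RNA per red cell cannot be told apart.

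The direction of every ratio is taken from the column names and is not settled. The labels place mutant RNA in Cy5 on all 4 arrays. The deposited columns, named as mutant against wild type, follow the scanner's Cy5 over Cy3 ratio on arrays 1 and 2 (r = 0.932 and 0.940 over bright probes) and run against it on arrays 3 and 4 (r = -0.992 and -0.951). As deposited, arrays 1 and 2 correlated with each other at 0.57 over all probes, and arrays 3 and 4 at 0.45. Array 1 correlated with arrays 3 and 4 at -0.05 and -0.42, and array 2 at -0.07 and -0.26. Read as Cy5 over Cy3, these last values were 0.05, 0.42, 0.07 and 0.26. Values below follow the column names, and the reading with mutant RNA in Cy5 throughout is given as well for the members' means, their share of signal and the gene lists. Under it, the mutant and control percentiles and shares of arrays 3 and 4 change places. Hdac3 had log2 ratios of -0.22, -0.50, -0.52 and -1.15 by the column names (mean -0.60 ± 0.39, SD, n = 4; limma adjusted p = 0.579), and a mean of 0.24 as labelled. For replicates 2 to 4 the description field speaks of embryonic stem cells, although title, source and tissue fields speak of hearts. Cardiomyocyte marker genes took 0.963% of the summed signal in the mutant and 0.978% in the control channel of replicate 1, and 0.784% to 0.957% in mutant and 0.833% to 0.940% in control channels of replicates 2 to 4. The pluripotency gene Pou5f1 was not well above background in any channel.

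Each probe is a 60-base oligo, and the sequences matter here because globin genes are close relatives. The 3 probes below read the embryonic and adult α-type genes and embryonic Hbb-y. Capitals mark a longest run of bases that each shares with any other globin probe on the array; Hba-a1 has runs of equal length with an Hbb-bh2 and the Hbq1b probe, and 1 of them is marked.
Hba-x: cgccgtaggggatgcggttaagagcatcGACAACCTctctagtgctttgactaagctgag
Hba-a1: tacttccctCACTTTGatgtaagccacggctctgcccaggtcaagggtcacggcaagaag
Hbb-y, probe a: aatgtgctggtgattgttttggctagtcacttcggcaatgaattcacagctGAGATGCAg
The Hba-x probe lies at chr11:32177668-32177727 and the Hba-a1 probe at chr11:32183955-32184014, both on the forward strand, in the mm9 coordinates of the files. On the reverse strand of chromosome 7, Hbb-y probe a lies at chr7:111000448-111000507 and Hbb-y probe b at chr7:111000268-111000327, where probe b holds an AATAAA polyadenylation signal. The Hbb-bh1 probe lies at chr7:110990209-110990268 and the Hbb-b1 probe at chr7:110961105-110961164.

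The shared runs were short. Over the 15 pairs of member probes the longest common run was 8 bases, and no member probe shared a run of 15 bases with any other globin probe. Outside the globins, the Hbb-b1 probe shared a run of 15 bases with a probe for Sprr2e and Hbb-y probe b shared such runs with 2 probes, 1 of them for Rpl11. Transcript sequences were not used here, so these runs compare probes with probes and not probes with all globin RNAs. Some pairs of genes are not separated by their annotation. The files list accessions of both Hba-a1 and Hba-a2 for the Hba-a1 probe and also for the Hba-a2 probe, so both are read as adult α globin. The accession of the Hbb-b1 probe belongs to Hbb-bt in RefSeq (GRCm38.p6), and a probe named Beta-s to Hbb-bs. Hbb-bs and Hbb-bt are the adult pair of the s haplotype, which C57BL/6 mice carry, and Hbb-b1 and Hbb-b2 that of the d haplotype, which other laboratory strains carry. The haplotypes of the pools are not given. The Beta-s probe matched the start of Hbb-bs at 46 of 46 overlapping bases and that of Hbb-bt at 38 of 45.

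Start-site sequences were available for Hba-x, Hba-a1, Hbb-y and Hbb-bt, and the 120 bases before each start are shown because the genes come under different developmental control. Capitals mark matches on either strand to 3 motifs: CACCC, known for KLF factors, CCAAT, bound by its own binding factors, and GATAA, known for GATA factors.
Hba-x, chr11:32276480-32276599, forward strand: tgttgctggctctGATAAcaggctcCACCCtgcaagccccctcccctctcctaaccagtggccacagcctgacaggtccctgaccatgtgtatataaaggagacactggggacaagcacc
Hba-a1, chr11:32283552-32283671, forward strand: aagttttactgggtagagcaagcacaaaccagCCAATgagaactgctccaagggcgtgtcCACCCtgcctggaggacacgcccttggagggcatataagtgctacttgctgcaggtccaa
Hbb-y, chr7:103853208-103853327, reverse strand: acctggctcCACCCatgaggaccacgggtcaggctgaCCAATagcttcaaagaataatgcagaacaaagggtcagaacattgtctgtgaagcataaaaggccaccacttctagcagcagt
Hbb-bt, chr7:103813924-103814043, reverse strand: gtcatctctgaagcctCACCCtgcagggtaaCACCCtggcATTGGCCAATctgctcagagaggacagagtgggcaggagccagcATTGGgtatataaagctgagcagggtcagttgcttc
These sequences and coordinates are those of RefSeq on GRCm38.p6, a later build than that of the probes. CACCC was found in all 4 windows and occurs in 31.7% of 32851 mouse promoter windows of this length. CCAAT was found in 3 of the 4, the exception being Hba-x, against 21.3% of all windows, and 2 of the 3 matches in Hbb-bt abut on opposite strands. GATAA was found in the Hba-x window and not in the other 3, against 10.5% of all windows. Over the full 250 bases before the start each of the 4 genes had 1 match, as did 22.6% of all promoters at least once. The Hba-a1 and Hba-a2 windows were identical over 117 bases once shifted, while Hba-x matched Hba-a1 at 32 of 96.

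The 5 probes of Hba-x, Hba-a1, Hbb-bh1 and Hbb-y were among the brightest of every channel. Processed signals of Hba-x lay between the 98.51st and 99.63rd percentile of all probes in mutant channels and between the 98.90th and 99.95th in the control channels. Hba-a1 lay between the 98.36th and 99.68th in mutant and between the 98.98th and 99.97th in control channels. Hbb-bh1 had 99.98, 99.88, 99.40 and 99.78 as its percentiles in the mutant channels of arrays 1 to 4, against 99.99 in each control channel. The 2 Hbb-y probes were at or above the 99.36th in mutant and the 99.95th in control channels. Levels of different probes are not set against each other, since probes bind with different strength. No globin spot was saturated in either channel of any array, and none carried an outlier flag. The saturation flag marked 0 spots on every array, so it does not set the globins apart from other probes. On arrays 1 and 2 Hbb-bh1 had the highest mean Cy3 signal of the array (160759 and 180718). Compression of the signal at the bright end was not tested.

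**Figure D1:**
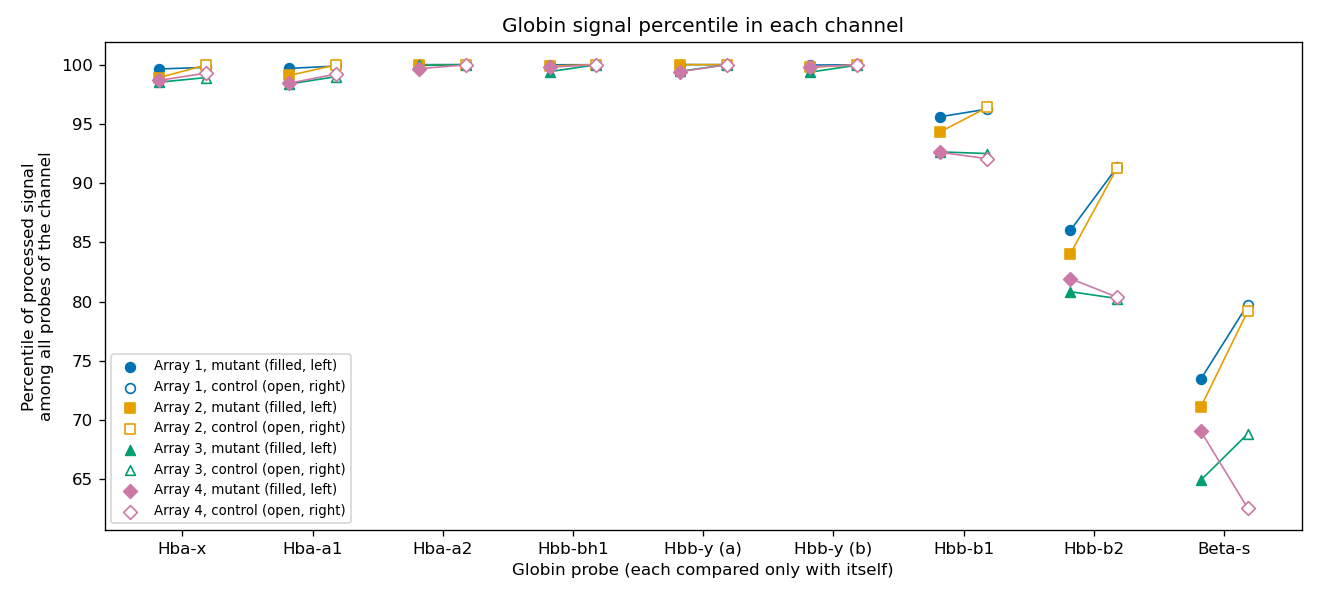
Percentile of the processed signal of 9 globin probes among all probes of a channel (vertical axis), with the mutant channel of each array as a filled point on the left joined to its control channel as an open point on the right. Embryonic and adult α-type probes crowd above the 98th percentile, while the adult β-type probes Hbb-b1, Hbb-b2 and Beta-s sit lower; in the control channels arrays 1 and 2 lie above arrays 3 and 4 for Hbb-b1 and Hbb-b2 as for Hba-x and Hba-a1.

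All member probes together took 0.582%, 0.426%, 0.303% and 0.290% of the summed processed signal in the mutant channels of arrays 1 to 4, against 0.573%, 0.744%, 0.467% and 0.412% in the control channels. By the column names the mutant share was the lower on arrays 2 to 4 and the higher, by little, on array 1. Read as labelled, it would be 0.467% in mutant against 0.303% in control on array 3 and 0.412% against 0.290% on array 4, and so the higher on arrays 1, 3 and 4. No test was run on these shares.

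In the deposited ratios every member had a mean below 0, and none passed the test across all probes. With limma, 0 of 6 member probes passed at an adjusted p below 0.05, where 0% of 25456 probes tested did so (929 higher and 1243 lower at an unadjusted p below 0.05, or 786 and 394 with scanner signals centred on the median). The median of the members' means was -0.38 on the log2 scale, against 0.006 over all probes tested. All 6 means were below 0, as were 48.1% of all. At an unadjusted p below 0.05, 2 of 6 were lower, Hbb-bh1 and Hbb-y probe b, against 4.88% of all probes.

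Embryonic ζ globin, Hba-x, had log2 ratios of 0.24, -0.64, -0.25 and -0.47 on arrays 1 to 4, where a value below 0 means less signal in the mutant pool. Its mean was -0.28 ± 0.38 (SD, n = 4), a ratio of 0.824 (adjusted p = 0.607). Array 1 stood above 0 and the other 3 below it.

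Hba-a1, one of the adult α-globin genes, had ratios of 0.20, -0.65, -0.41 and -0.54, a mean of -0.35 ± 0.38 (ratio 0.785; adjusted p = 0.579). It kept close to Hba-x on each array, with differences between their log2 ratios of -0.04, -0.01, -0.15 and -0.07. The Hba-a2 probe, which the annotation does not separate from Hba-a1, had 0.33, -0.54, -0.32 and -0.80 (mean -0.33 ± 0.48).

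Hbb-bh1, which encodes the embryonic βH1 chain, had ratios of 0.22, -0.43, -0.84 and -0.85, a mean of -0.47 ± 0.51 (SD, n = 4), a ratio of 0.720 (adjusted p = 0.579). Array 1 was again the one above 0. The log2 ratio of Hbb-bh1 minus that of Hba-x was -0.02, 0.21, -0.59 and -0.38 as deposited. It was -0.12, 0.05, -0.38 and -0.14 once centred on probes of like brightness, a step described further on.

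Hbb-y, which encodes the embryonic εy chain, was read by both of its probes as above 0 on array 1 and below 0 on arrays 2 to 4. Probe a had log2 ratios of 0.71, -0.38, -1.04 and -1.16 (mean -0.47 ± 0.86, SD, n = 4; adjusted p = 0.645). Probe b had 0.19, -0.49, -0.78 and -0.59 (mean -0.42 ± 0.42; adjusted p = 0.579). Probe a thus gave values farther from 0 than probe b on 3 of 4 arrays for the same gene. The difference of probe a minus probe b was 0.52, 0.10, -0.26 and -0.57 in the direction of the columns, and 0.52, 0.10, 0.26 and 0.57 as Cy5 over Cy3. It had 1 sign on all arrays only when read by dye.

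Adult β globin showed another order of arrays. Hbb-b1 had log2 ratios of -0.41, -1.07, 0.07 and 0.16 (mean -0.31 ± 0.56, SD, n = 4; ratio 0.805; adjusted p = 0.647). It was below 0 on arrays 1 and 2 and near or above 0 on arrays 3 and 4. The other adult β-type probes, which are not among the 5 genes, were also below 0 on arrays 1 and 2. Hbb-b2 had -1.16, -1.51, 0.10 and 0.28 (mean -0.57 ± 0.90; adjusted p = 0.614), and Beta-s had -0.94, -1.22, -0.58 and 0.96 (mean -0.45 ± 0.97; adjusted p = 0.681). The spread of Hbb-b2 and Beta-s over arrays was wider than that of 99.5% and 99.6% of probes tested, and that of the members than that of 87.1% to 99.4%.

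**Figure D2:**
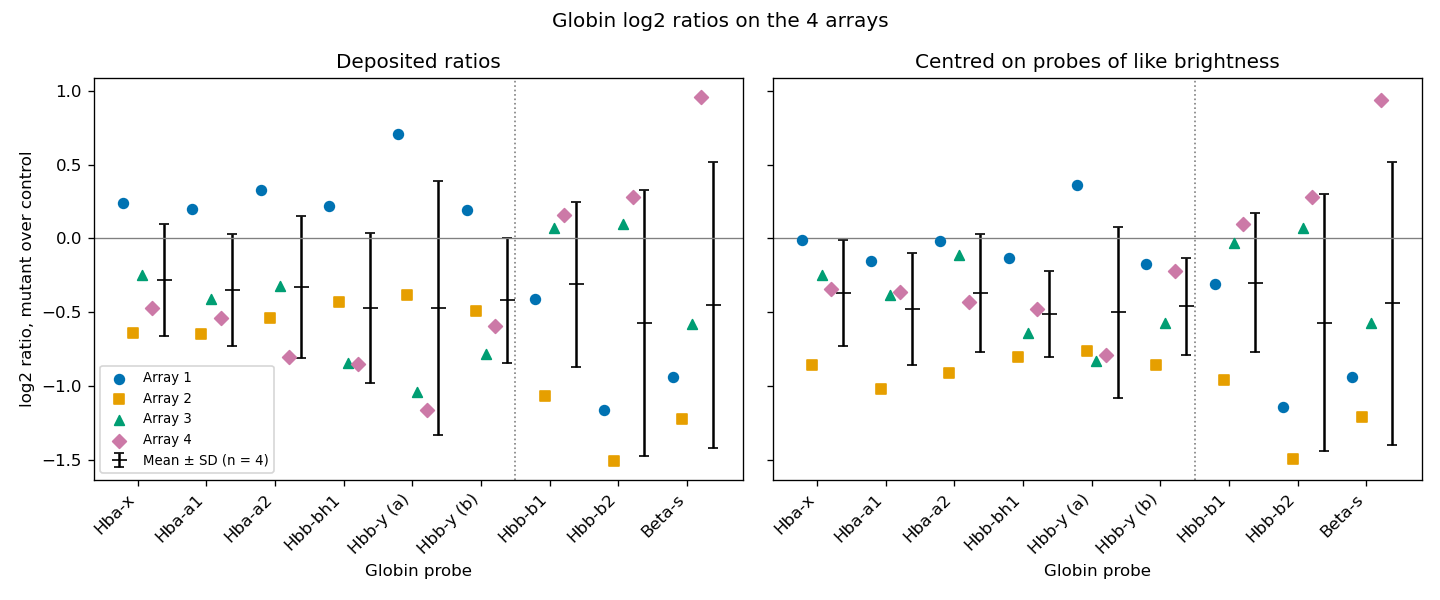
Log2 ratio of mutant over control (vertical axis) for 9 globin probes, as deposited (left) and after centring on probes of like brightness (right), with 1 point per array and the mean ± SD of 4 arrays in black. Left of the dotted line, embryonic and adult α-type probes have array 1 on top. Once centred they have array 2 lowest, except Hbb-y (a), where arrays 2, 3 and 4 lie close together (-0.76, -0.83 and -0.79). Right of the line the adult β-type probes have arrays 1 and 2 well below array 4.

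The percentiles of adult β globin differed between arrays in the control channels. Hbb-b1 lay at the 95.60th, 94.32nd, 92.63rd and 92.59th percentile in the mutant channels of arrays 1 to 4, against 96.24, 96.38, 92.49 and 92.06 in the control channels. Hbb-b2 lay at 86.02, 84.05, 80.83 and 81.93 in mutant channels, against 91.37, 91.31, 80.25 and 80.36 in control channels. Control pools of arrays 1 and 2 were thus above those of arrays 3 and 4 for both probes, and the mutant pools differed between these arrays by less. By the column names the control channel is Cy3 on arrays 1 and 2 and Cy5 on arrays 3 and 4. Dye and pool therefore cannot be told apart in this comparison. Hba-x and Hba-a1 likewise had arrays 1 and 2 above arrays 3 and 4 in the control channels. Hba-x lay at 99.63, 98.90, 98.51 and 98.66 in mutant channels, against 99.76, 99.95, 98.90 and 99.28 in control channels. Hba-a1 lay at 99.68, 99.08, 98.36 and 98.43 in mutant channels, against 99.87, 99.97, 98.98 and 99.20 in control channels.

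The gap between adult and embryonic β globin had 1 sign on all arrays only when read by dye. The log2 ratio of Hbb-b1 minus that of Hbb-bh1 was -0.64, -0.64, 0.91 and 1.01 in the direction of the columns. Read as Cy5 over Cy3 it was -0.64, -0.64, -0.91 and -1.01, with a mean of -0.80 ± 0.19 (SD, n = 4). After the centring described next it was -0.18, -0.16, -0.60 and -0.58 as Cy5 over Cy3 (mean -0.38 ± 0.24). Whether dye or genotype sets this gap cannot be told apart without knowing which channel held the mutant RNA.

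The brightest probes as a class did not centre on 0 in the deposited table. Hbb-bh1, Hbb-y probe b and Hba-a2 had a mean log2 signal of 17 to 18 on all 4 arrays. Hbb-y probe a lay in this range on arrays 1, 2 and 4, and Hba-a1 on arrays 1 and 2. Non-globin probes in this range had median deposited log2 ratios of 0.38, 0.38, -0.18 and -0.38 on arrays 1 to 4 (77 to 197 probes per array). As Cy5 over Cy3 all 4 were above 0, at 0.38, 0.38, 0.18 and 0.38. Probes with a mean log2 signal of 8 to 10 had medians within 0.01 of 0. The ratios that the scanner software wrote left less of this trend, with bright-end medians of 0.13, 0.13, -0.03 and -0.14.

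**Figure D3:**
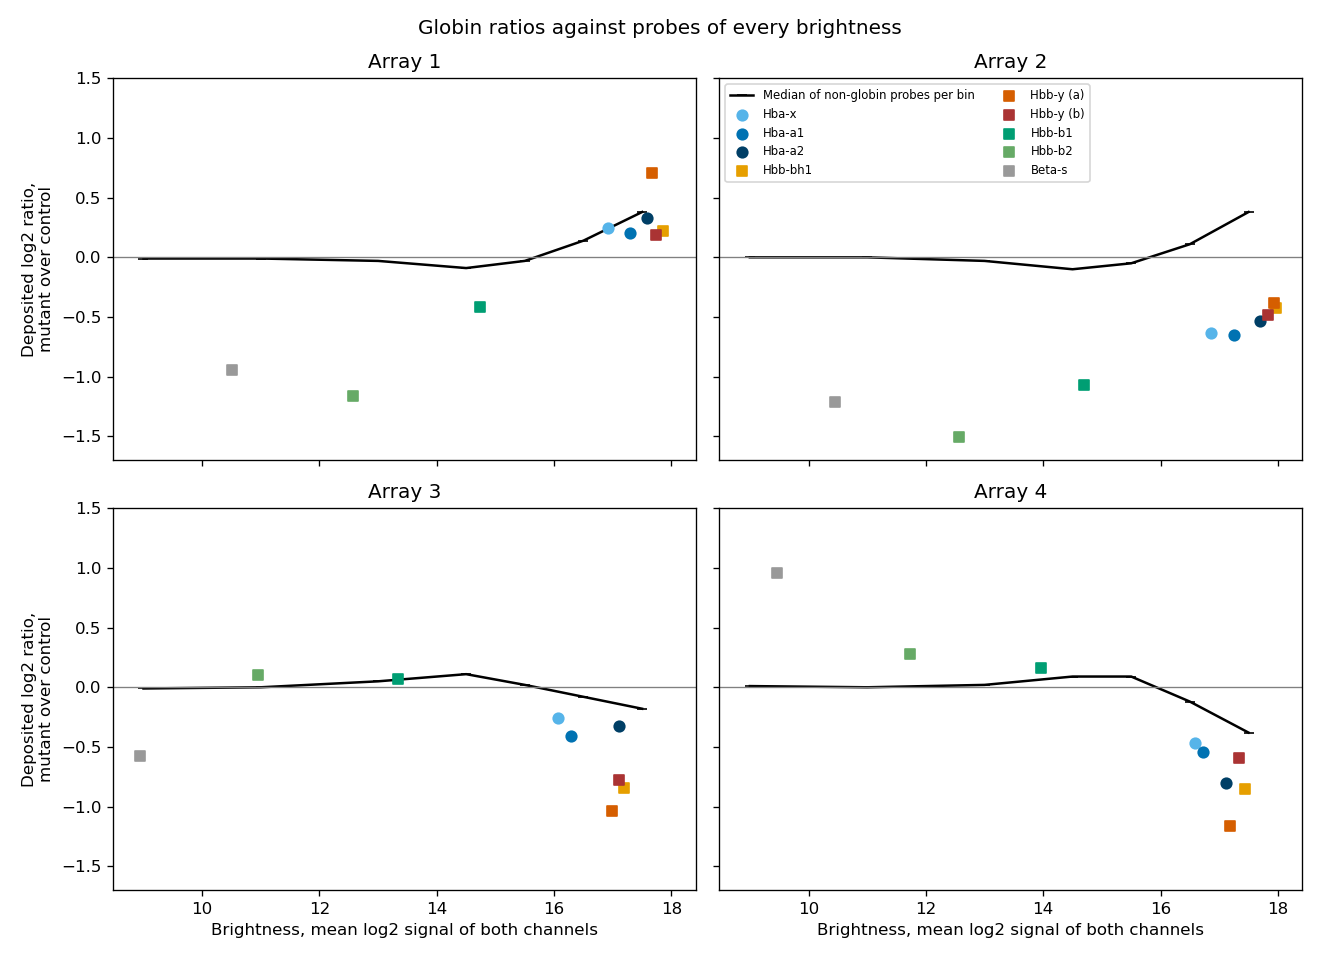
Deposited log2 ratio of mutant over control (vertical axis) against brightness, the mean log2 signal of both channels (horizontal axis), for 9 globin probes (points) and for the median of non-globin probes in bins of brightness (black line), with 1 panel per array. The line bends up at the bright end on arrays 1 and 2 and down on arrays 3 and 4, and the bright globin probes lie below it on arrays 2, 3 and 4.

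Centring each probe on the running median of 201 non-globin probes of like brightness, a step chosen after seeing the data, narrowed the spread of Hbb-bh1 and Hbb-y over the arrays and left that of Hba-x and Hba-a1 about as it was. Hbb-bh1 then had log2 ratios of -0.13, -0.80, -0.64 and -0.48 (mean -0.51 ± 0.29, SD, n = 4; unadjusted p = 0.0046, adjusted p = 0.563, limma). Hba-a1 had -0.15, -1.02, -0.38 and -0.36 (mean -0.48 ± 0.38; adjusted p = 0.563), and Hba-x had -0.01, -0.86, -0.25 and -0.34 (mean -0.37 ± 0.36; adjusted p = 0.563). These 3 genes were below 0 on all 4 arrays, though on array 1 by 0.15 or less.

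Within each array, centring moved both Hbb-y probes by the same amount, so it could not change the gap between them. On array 1 they then had opposite signs. Probe a had 0.36, -0.76, -0.83 and -0.79 (mean -0.50 ± 0.58), whereas probe b had -0.17, -0.86, -0.57 and -0.22 (mean -0.46 ± 0.33). Hbb-b1, which is less bright, moved little and had -0.31, -0.96, -0.03 and 0.10 (mean -0.30 ± 0.47). In the centred values 4 of 6 member probes were below 0 on all 4 arrays, against 10.3% of all probes. As deposited 0 of 6 were, against 10.2%, and by the scanner software's own ratios 3 of 6, against 10.6%. At an unadjusted p below 0.05, 4 of 6 were lower after centring, against 5% of all probes, and 0 of 6 passed when adjusted (0% of all probes).

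Gene by gene over the 4 arrays, an exact two-sided permutation test of signs has 16 sign patterns, of which at least 2 lie as far from 0 as the data, so it cannot pass a threshold of 0.05. Hba-a1, Hba-x and Hbb-bh1 reached this smallest share, 2 of 16, in the centred values, and had an exact p of 0.25 as deposited. Hbb-y, as the mean of its probes, had an exact p of 0.25 centred and 0.375 as deposited. Hbb-b1 had 0.375 and 0.5.

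With mutant RNA read as Cy5 on every array, the signs of arrays 3 and 4 turn. The mean deposited log2 ratios then became 0.08 for Hba-x, 0.13 for Hba-a1, 0.37 for Hbb-bh1, 0.63 and 0.27 for Hbb-y probes a and b, and -0.43 for Hbb-b1. None passed (adjusted p = 0.362 to 0.859, limma), where 0.0471% of all probes did. With centring as well, 4 of 6 means were below 0, from -0.34 for Hbb-b1 to 0.30 for Hbb-y probe a (adjusted p = 0.477 to 0.949). Hbb-b1 was therefore the member whose mean stayed below 0 under both readings of the dyes, with and without centring. Its values on arrays 1 and 2 (-0.41 and -1.07) are the same in both readings. Those on arrays 3 and 4 were 0.07 and 0.16 by the column names. Without replicate 2 its deposited mean was -0.063. The other members, the adult gene Hba-a1 included, have no settled direction.

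The θ-like genes and Hbb-bh2 of the same loci were read as well. Hbq1b, a θ-like globin gene of the α locus, had log2 ratios of -0.10, -0.49, -0.32 and -0.19 (mean -0.27 ± 0.17, SD, n = 4; adjusted p = 0.579). Hbq1a, its near copy, whose probe shares a run of 21 bases with that of Hbq1b, had a mean of -0.17 ± 0.17. Hbb-bh2 had 3 probes, of which 1 was not well above background in any channel, and the other 2 had means of -0.18 and -0.16. Of globins outside the red cell, Cygb of connective tissue had a mean of 0.20 ± 0.13, Mb, the muscle globin myoglobin, -0.13 ± 0.32, and neuronal Ngb did not pass the filter on dim probes.

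Genes that red cells use beside globin were set next to the members as lists described by counts, since no gene in them passed the test (adjusted p of 0.579 or more for the genes named). The list of red cell membrane and blood group genes had 16 of 18 tested means below 0 and a median of -0.21, with array medians of -0.19, -0.55, -0.08 and -0.11. Read as labelled it had 14 of 18 below 0 and a median of -0.13. In it Rhag, an ammonium transporter of the red cell, had log2 ratios of -0.44, -0.90, -0.86 and -0.33 (mean -0.63 ± 0.29, SD, n = 4). Epb42, a membrane skeleton protein, had -0.26, -0.86, -1.08 and -0.60 (mean -0.70 ± 0.35). Both were below 0 on every array, array 1 included.

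The haem synthesis list had 10 of 12 means below 0 and a median of -0.13, against 11 of 12 and -0.02 read as labelled. Slc25a37, the mitochondrial iron importer mitoferrin, had a mean of -0.36 ± 0.26, Tmem14c, a porphyrin transporter, -0.28 ± 0.14 and Uros, an enzyme of the pathway, -0.14 ± 0.13. The list of red cell enzymes and late erythroid genes had 10 of 14 below 0 and a median of -0.10, with Car2, a carbonic anhydrase, at -0.50 ± 0.38, Trim10 at -0.47 ± 0.21 and Pklr, red cell pyruvate kinase, at -0.30 ± 0.18. Read as labelled that list had 6 of 14 below 0 and a median of 0.01. Globin chaperone and iron genes had 5 of 7 below 0 and a median of -0.05, against 3 of 7 and 0.03 read as labelled. Ahsp, the α-globin chaperone, named after its values were seen, had -0.15, -0.70, -0.43 and 0.04 (mean -0.31 ± 0.33). That is lower than the median of the chaperone and iron list, in which 2 of 7 means were above 0.

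Transcription factors of red cells and globin switching were spread around 0, with 10 of 19 means below 0 and a median of -0.05, or 12 of 19 and -0.05 read as labelled. Klf1, which activates adult β globin, had log2 ratios of 0.00, -0.66, -0.17 and -0.30 (mean -0.28 ± 0.28, SD, n = 4). Bcl11a and Sox6, both known to repress embryonic β-type genes, had means of -0.26 ± 0.20 and -0.18 ± 0.13, and Cbfa2t3, a corepressor, had 0.29 ± 0.32. Over all probes tested, 48.1% had a mean below 0, and these list counts carry no test.

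**Figure D4:**
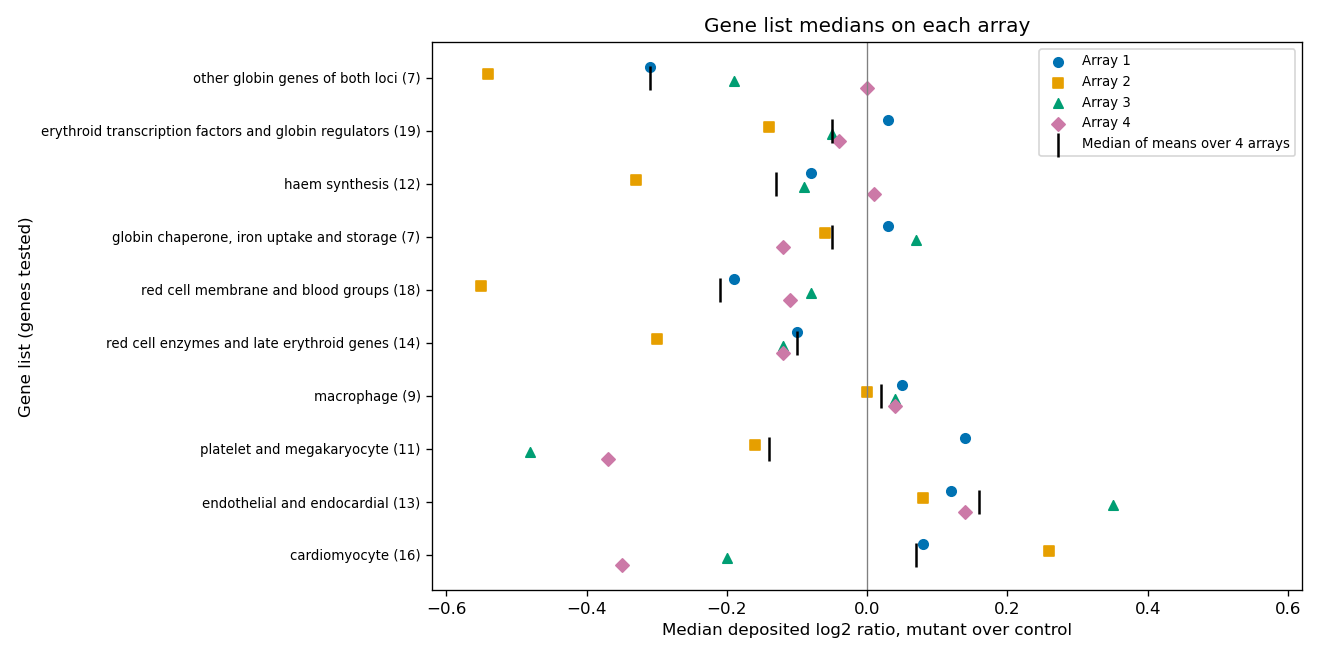
Median deposited log2 ratio of mutant over control (horizontal axis) for 10 gene lists (vertical axis, with the number of genes tested), 1 point per array and a bar for the median of the means over 4 arrays. In the direction of the columns, array 2 is the lowest array for the membrane, haem, late erythroid and other globin lists, and arrays 3 and 4 are the lowest for the platelet and cardiomyocyte lists.

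Markers of other cells differed between the arrays as well. Platelet and megakaryocyte genes, blood cells as well, had 9 of 11 means below 0 and array medians of 0.14, -0.16, -0.48 and -0.37, with 0.00450% to 0.00657% of the summed signal in mutant and 0.00528% to 0.00618% in control channels. Macrophage genes had 3 of 9 below 0 (median 0.02; 0.00572% to 0.0101% of signal in mutant and 0.00690% to 0.00796% in control channels), and Ptprc and Fcgr3 did not pass the filter on dim probes. Endothelial and endocardial genes had 4 of 13 below 0 (median 0.16; 0.0157% to 0.0219% in mutant and 0.0149% to 0.0216% in control channels). Cardiomyocyte genes had 7 of 16 below 0 (median 0.07), with array medians of 0.08, 0.26, -0.20 and -0.35. Read as labelled, the counts below 0 were 3 of 11 for platelet genes (median 0.16), 4 of 9 for macrophage genes (0.01), 8 of 13 for endothelial genes (-0.04) and 2 of 16 for cardiomyocyte genes (0.21), so the direction of the platelet and endothelial lists turned with the reading. The part of any of these lists in the globin values was not tested.

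The genes whose 4 log2 ratios lay nearest to the mean of the 5 member genes (0.14, -0.65, -0.47 and -0.52) were sought among 14517 genes by root mean square distance over the 4 arrays. Gp9, a platelet glycoprotein, was nearest with 0.07, -0.67, -0.64 and -0.48 (distance 0.096). Cavin2 (0.115), Plek, the platelet kinase substrate pleckstrin (0.129), Togaram2 (0.135), Slc14a1, the red cell urea transporter (0.146), and Itga4, an integrin subunit (0.147), followed. With 4 points per gene and so many genes, closeness of this kind is a description only.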

How the data were processed

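The authors deposited scanner output for 4 two-colour Agilent arrays and a table of log2 ratios, whose columns are named mutant against wild type with a normalization not given in the sources used here. Scanner output carries raw and processed intensity, local background intensity and log10 ratios of Cy5 over Cy3, written by Agilent Feature Extraction 11.5.1.1 per the file headers. Version 8.5.1.1 stands in the submitters' processing notes. Rows were matched by probe name. The members and lists were chosen with earlier results of these data known.

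A probe was kept where the mutant channel, or the control channel, was well above background on every array (25456 of 39429). Deposited log2 ratios were tested against 0 with limma 3.58.1 in R 4.3.3 (lmFit, eBayes), adjusted by Benjamini-Hochberg over all probes, with a threshold of 0.05. Alternatives started from normexp (offset 50) and loess on the scanner intensities, or from the software's log ratios. Percentiles and shares use processed intensity. The number of arrays limits the precision.

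The protocol calls the 4 pairs independent replicates. A listed gene stood by its brightest probe. Of the genes named by rule (probes of the globin genes, the 4 of smallest p in each list, the 6 nearest to the member mean), those of 5 lists are given only as list values, and a few others it selected are left out. Probes were named by accession through RefSeq for 27508 probes. On simulated ratios of 25456 probes 32% of log2 changes of 0.5 were called, 98% of changes of 1 and 100% of changes of 1.5, with 10 false calls. Changes were added to probes drawn at random, with independent noise of each probe's own fitted spread. The members spread more over the arrays than 87.1% to 99.4% of probes tested, so these shares do not apply to them.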

Additional observations from a re-analysis of the deposited data

Results flagged for a closer look

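2 of 34 values examined over the 4 arrays had 1 array set apart from the rest, where chance alone sets apart about 1 in 20 groups. Cavin2 had a log2 ratio of 0.04 on array 1 and -0.41 to -0.48 on the others. Sox6 had 0.01 on array 2 and -0.22 to -0.25 on the others. No globin probe was set apart in this way.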

How the results depend on the processing

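The count of probes called was 0, and 0 under scanner loess, the software ratios, median centring, a dye term, either other filter and the added centring. It was 12 as labelled, 19 with arrays 1 and 2 only, 5 with array weights, 0 to 4 without each replicate (4 without replicate 1), 92 as labelled after scanner loess, 0 to 10 after loess without each replicate, 106 as labelled after centring and 0 to 4 after centring without each replicate. No member passed in any setting. The fit with no replicate block (8 channels) used scanner signals after loess, scaled between arrays, and not the deposited ratios. It called 0 probes, with 397 higher and 399 lower at an unadjusted p below 0.05. It gave -0.49 for Hbb-bh1 and -0.32 for Hbb-b1, the same means as the paired fit after scanner loess. Hba-x, Hba-a1, Hbb-bh1, Hbb-b1 and Hbb-y probe b stayed below 0 in all 24 settings that keep the columns' direction, but not in size. Median centring gave -0.072 for Hba-x, -0.13 for Hba-a1, -0.25 for Hbb-bh1, -0.24 and -0.20 for Hbb-y probes a and b and -0.12 for Hbb-b1. Arrays 1 and 2 only gave -0.22 for Hba-a1, -0.10 for Hbb-bh1, -0.15 for Hbb-y probe b and -0.74 for Hbb-b1, and array weights gave -0.13 for Hba-x, -0.17 for Hba-a1, -0.13 for Hbb-bh1, -0.15 for Hbb-y probe b and -0.57 for Hbb-b1. Among the fits that leave out 1 replicate, Hba-x, Hba-a1 and Hbb-b1 were each nearest to 0 without replicate 2. Hbb-y probe a turned to 0.12 with array weights and to 0.16 with arrays 1 and 2 only, and the cause was not tested. Over fits that leave out 1 replicate, means ran from -0.48 to -0.16 for Hba-x, -0.59 to -0.25 for Hba-a1, -0.72 to -0.35 for Hbb-bh1, -0.87 to -0.24 and -0.63 to -0.30 for Hbb-y probes a and b, -0.47 to -0.063 for Hbb-b1, -0.233 to 0.0554 for Hbq1a (0.0166 and 0.0202 after loess without replicates 1 and 3) and -0.241 to 0.0918 for an Hbb-bh2 probe (0.0154 after loess without replicate 3). Read as labelled, deposited means turned to 0.0838 for Hba-x, 0.126 for Hba-a1, 0.229 for Hba-a2, 0.373 for Hbb-bh1, 0.631 and 0.268 for Hbb-y, 0.0215 for Hbb-bh2, 0.238 for Hdac3, 0.259 for Car2, 0.0978 for Trim10, 0.136 for Epb42, 0.0707 for Sox6, -0.0587 for Cbfa2t3, 0.121 for Cavin2, 0.132 for Gp9, 0.214 for Plek, 0.07 for Slc14a1, 0.168 for Itga4 and 0.118 for Togaram2. As labelled after scanner loess they were 0.0771, 0.118, 0.223, 0.365, 0.623 and 0.261 for the same globin probes up to Hbb-y, 0.162 for Hbb-bh2, 0.0619 for Hbq1b, 0.213 for Hdac3, 0.252 for Car2, 0.0566 for Trim10, 0.021 for Epb42, -0.0585 for Cbfa2t3, 0.12 for Cavin2, 0.169 for Plek, 0.142 for Itga4 and 0.062 for Togaram2. As labelled after centring they were 0.303 for Hbb-y probe a, 0.045 for Hbb-bh1, 0.0201 for Hbb-bh2, 0.24 for Hdac3, 0.261 for Car2, 0.127 for Trim10, 0.156 for Epb42, 0.0532 for Sox6, 0.023 for Uros, -0.05 for Cbfa2t3, 0.181 for Cavin2, 0.143 for Gp9, 0.22 for Plek, 0.0475 for Slc14a1, 0.164 for Itga4 and 0.127 for Togaram2. Hbq1a turned to 0.0045 under scanner loess, also with a dye term or with no replicate block, and to 0.00448 with globins left out of the loess, and a dim Hbb-bh2 probe to 0.0135 under median centring. Signal over background limits the θ-like and Hbb-bh2 probes, and the bright-end trend limits the embryonic and adult α-type ones.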
